A study of Homo sapiens with 12 samples.

Results

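The very long expressed genes of SBC3 cells were the genes whose genomic span was at least 250 kb and whose mean level in the 3 control libraries was at least 10 CPM (raw counts scaled to the library total). Span is the distance from the first to the last annotated exon base, and genes of the mitochondrial genome were left out. Of the 60649 genes counted, 1507 reached that span and 374 also reached that level. SBC3 is a human small cell lung cancer line, grown here as spheroids, and RNA sequencing was done on 12 libraries in 4 groups of 3. The groups were a control, teriflunomide, lurbinectedin, and the combination of teriflunomide and lurbinectedin. All 4 groups were spheroids of the same line, and doses and times of exposure are not given in the sources used here. The members were chosen by their level in the control libraries, so their change from control is given below as a description. The combination against teriflunomide uses no library that chose them, and the tests are given there.

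RNA polymerase II copies a gene from its start site to its end, introns included, so a long gene needs many more bases of elongation per messenger RNA than a compact gene. Most of the span of such genes is intron, and many of them encode scaffolds, receptors, kinases and adhesion proteins. Lurbinectedin is an alkylating drug that binds guanines in the minor groove of DNA and is known to stall elongating RNA polymerase II. Teriflunomide inhibits dihydroorotate dehydrogenase, an enzyme of pyrimidine synthesis in mitochondria.

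The members had a median span of 348 kb, from 251 to 1740 kb, and a median of 2.59% of the span was exonic. By annotation 359 were protein coding and 15 were not. Library totals ran from 23206414 to 33222162 counts. Members held 2.78% ± 0.0145 of all counts in control (SD, n = 3), 2.77% ± 0.0588 with teriflunomide, 0.457% ± 0.0311 with lurbinectedin and 0.582% ± 0.107 in the combination. Mitochondrially encoded genes took 6.26% to 7.17% of counts in control, 8.42% to 22.6% with teriflunomide, 13.8% to 17.0% with lurbinectedin and 13.1% to 24.9% in the combination, so this share was higher in every library with lurbinectedin than in control. Teriflunomide replicate 3 (22.6%) and combination replicate 2 (24.9%) stood apart from their groups. Of 13 neuroendocrine markers, which usually mark small cell lung cancer, 9 were under 1 CPM in all 12 libraries, with INSM1, GRP and UCHL1 at 0. Their sum was 62.2 to 63.3 CPM in control and 107 to 114 CPM with lurbinectedin, and that of 6 epithelial markers was 237 to 253 CPM and 403 to 437 CPM. Summed markers of leukocytes (at most 2.58 CPM) and endothelial cells (at most 0.629 CPM) were near 0, whereas 7 fibroblast markers summed to 521 to 550 CPM in control and 187 to 221 CPM with lurbinectedin, with LUM at 0. Of the 6 epithelial markers 4 were under 1 CPM in all 12 libraries, as were 4 of the 7 fibroblast markers. These sums thus rest on few genes and do not show a shift of a whole list. The part of these markers and of the mitochondrial share in the results below was not tested. In bulk RNA, fewer cells of a type and less RNA per cell cannot be told apart, and values are relative to the library, so a change in total RNA is not seen.

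Sequences upstream of the start site are shown for the 3 protein-coding members with the lowest and the 3 with the highest fold change with lurbinectedin, so that genes at both ends can be compared. Each is the 250 bases before the RefSeq start site (GRCh38.p14), written 5′ to 3′ on the gene's strand, with the GC box GGGCGG, or its complement CCGCCC, in capitals.
SH3RF3 (chr2:109128955-109129204, plus strand): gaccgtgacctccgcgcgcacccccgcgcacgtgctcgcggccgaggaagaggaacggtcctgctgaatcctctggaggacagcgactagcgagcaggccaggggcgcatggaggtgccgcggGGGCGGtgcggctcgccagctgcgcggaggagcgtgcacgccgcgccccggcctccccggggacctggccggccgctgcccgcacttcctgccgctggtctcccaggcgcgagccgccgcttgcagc
PPM1H (chr12:62935151-62935400, minus strand): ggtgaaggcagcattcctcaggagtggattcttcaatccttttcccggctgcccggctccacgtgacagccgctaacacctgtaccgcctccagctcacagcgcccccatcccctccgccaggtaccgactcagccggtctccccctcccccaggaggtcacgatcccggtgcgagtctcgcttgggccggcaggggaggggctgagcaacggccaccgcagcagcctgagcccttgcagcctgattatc
ARL15 (chr5:54310574-54310823, minus strand): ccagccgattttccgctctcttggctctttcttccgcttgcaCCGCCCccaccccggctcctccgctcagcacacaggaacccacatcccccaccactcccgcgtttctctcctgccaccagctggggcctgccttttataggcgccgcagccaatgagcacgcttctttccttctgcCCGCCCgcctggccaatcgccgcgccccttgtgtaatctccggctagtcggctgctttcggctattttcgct
TENT5A (chr6:81752682-81752931, minus strand): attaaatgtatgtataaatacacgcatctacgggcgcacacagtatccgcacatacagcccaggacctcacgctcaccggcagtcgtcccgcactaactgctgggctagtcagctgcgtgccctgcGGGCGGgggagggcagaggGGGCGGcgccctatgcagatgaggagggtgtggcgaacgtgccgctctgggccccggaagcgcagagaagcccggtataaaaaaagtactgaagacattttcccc
CCNG2 (chr4:77156957-77157206, plus strand): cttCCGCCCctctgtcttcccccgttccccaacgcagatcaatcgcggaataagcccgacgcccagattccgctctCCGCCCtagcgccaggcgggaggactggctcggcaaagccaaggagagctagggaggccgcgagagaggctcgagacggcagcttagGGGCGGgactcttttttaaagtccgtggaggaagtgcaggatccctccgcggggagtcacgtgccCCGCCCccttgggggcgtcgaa
TRIM5 (chr11:5685075-5685324, minus strand): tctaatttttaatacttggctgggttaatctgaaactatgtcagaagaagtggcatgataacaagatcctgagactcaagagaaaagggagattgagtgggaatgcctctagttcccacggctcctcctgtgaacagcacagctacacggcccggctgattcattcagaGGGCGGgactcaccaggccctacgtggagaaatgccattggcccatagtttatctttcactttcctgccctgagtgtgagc
GC boxes, the sites of factors of the Sp1 family, occurred at both ends: 1 in SH3RF3, 0 in PPM1H and 2 in ARL15 among the genes that fell most, and 2 in TENT5A, 4 in CCNG2 and 1 in TRIM5 among those that were highest. RefSeq windows of 300 bases, 250 before and 50 after the start, were found for 312 of the 374 members. Members had a median GC content of 65.3% and 26 CpG dinucleotides, against 58.7% and 14 in all 35116 windows. These windows were not limited to expressed genes, and expressed genes of shorter span were not compared. The differences here and below therefore cannot be ascribed to span. GGGCGG on either strand occurred in 62.2% of the members' windows and 45.0% of all, TATAAA in 9.29% and 11.5%, and CCAAT in 30.4% and 34.6%. In the windows of 10 members that were not called lower with lurbinectedin, GGGCGG was found in 6, TATAAA in 3 and CCAAT in 2.

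With lurbinectedin, levels of nearly all members were a small part of those in control. The median member kept 6.51% of its control CPM (quartiles 3.25% and 15.6%), a log2 fold change of -3.93, or 15.3-fold lower. CPM here and below are normalised by the trimmed mean of M values (TMM) unless raw CPM are named. Fewer than 5% of control was left for 154 members, less than 10% for 242 and less than 50% for 351, while 23 kept at least 50% and 6 were above their control level. An adjusted p under 0.05 in edgeR's quasi-likelihood test was the threshold for a call, and by it 362 of 374 members were lower and 6 higher. Over all 16683 genes tested, 35.7% were called lower and 36.0% higher, with a median log2 fold change of 0.05. The 3 lurbinectedin libraries lay below the 3 control libraries without overlap for 367 members (40.8% of all genes tested), and above them for 6 (42.4%). The number of members under 1 CPM was 111 with lurbinectedin and 88 in the combination. In control it was 0, which the rule for members had set in advance.

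The loss was also measured in the combination against teriflunomide, where neither group had chosen the genes. Here 365 of 374 members (97.6%) were lower, 4 were higher and 5 were not called, against 35.8% lower and 35.2% higher among all genes tested. The median log2 fold change was -3.60 (12.1-fold lower), against 0.04 for all genes. It was -0.05 for the 8743 genes of shorter span that also had at least 10 raw CPM in control, of which 39.7% were lower. Those genes passed the same minimum but were not matched to the members in level. The median member kept 8.25% of its teriflunomide level (quartiles 3.96% and 18.4%). At least a 4-fold fall was called for 305 members and for 11.0% of all genes. Single libraries gave medians of -3.28, -3.80 and -3.64 for the members on the log2(CPM + 0.1) scale, so each combination library showed it. Without the libraries rich in mitochondrial counts, teriflunomide replicate 3 and combination replicate 2, 366 members were lower and the median was -3.37. The 3 combination libraries lay below the 3 teriflunomide libraries for 365 members (35.6% of all genes tested), above them for 3 (35.1%) and overlapped for 6. Against control, which chose the members, the combination had 359 lower and 5 higher, and 34.4% and 34.1% of all genes (median of the members -3.52). Across the 374 members the log2 fold changes of lurbinectedin against control and of the combination against teriflunomide, which share no library, had a Pearson r of 0.97, where all genes tested gave 0.952.

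**Figure D1:**
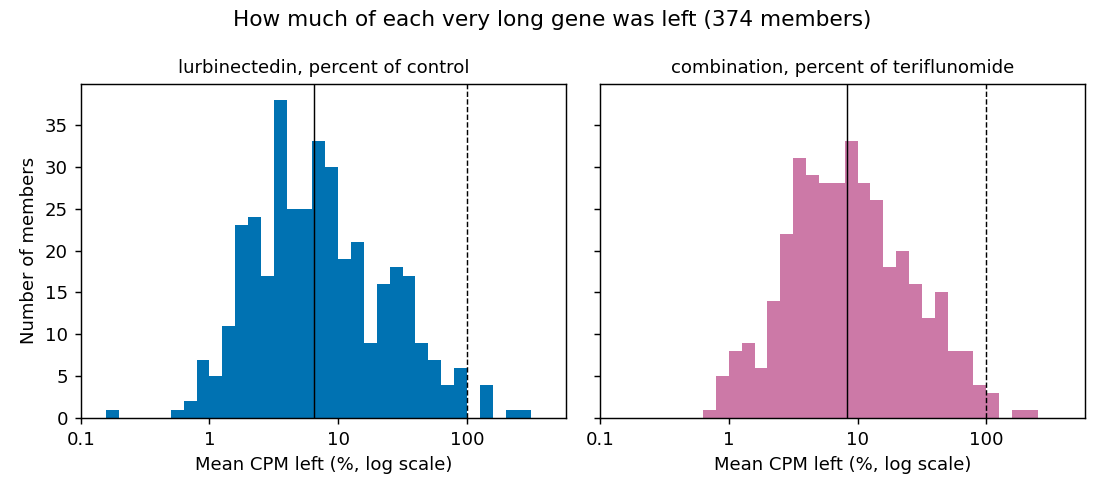
Number of members (vertical axis) by the percent of their mean CPM that was left (horizontal axis, log scale), for lurbinectedin in percent of control and for the combination in percent of teriflunomide. The solid line is the median (6.51% and 8.25%) and the dashed line is 100%; 6 and 5 of the 374 members lie at or beyond it.

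Among genes with at least 10 raw CPM in control, the median fold change was lower in each longer class of span up to 600 kb. In the combination against teriflunomide the median log2 fold change was 0.49 for 3538 genes under 25 kb, 0.03 for 2071 genes of 25 to 50 kb and -0.59 for 1738 genes of 50 to 100 kb. It was -1.69 for 1396 genes of 100 to 250 kb, of which 91.7% were called lower. Members of 250 to 400 kb (n = 234) had a median of -3.45, those of 400 to 600 kb (n = 92) of -4.20 and those of 600 kb or more (n = 48) of -3.62. Within the members the Spearman correlation with span was -0.172 over 374 genes, against -0.694 over the 9117 genes of all spans. The members cover a narrower range of span, from 251 to 1740 kb. A narrower range can by itself lower a correlation, so the 2 values are not like for like. These are descriptions across genes of the same libraries. Exonic length (Spearman correlation 0.108) and the number of exon blocks (0.034) were also weakly related to the fold change within the members. Just inside the span limit, EHMT1 (251 kb) and GRM5P1 (252 kb) had 9.42% and 18.9% of control left with lurbinectedin, and just outside it CWC27 and ERCC6L2 (both 250 kb when rounded) had 8.52% and 32.5%. Just inside the level limit PLCL2 and MLLT3 kept 31.0% and 2.45%, and just outside it RANBP17 (9.75 raw CPM) and SRGAP1 (9.83 raw CPM) kept 27.5% and 2.96%.

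**Figure D2:**
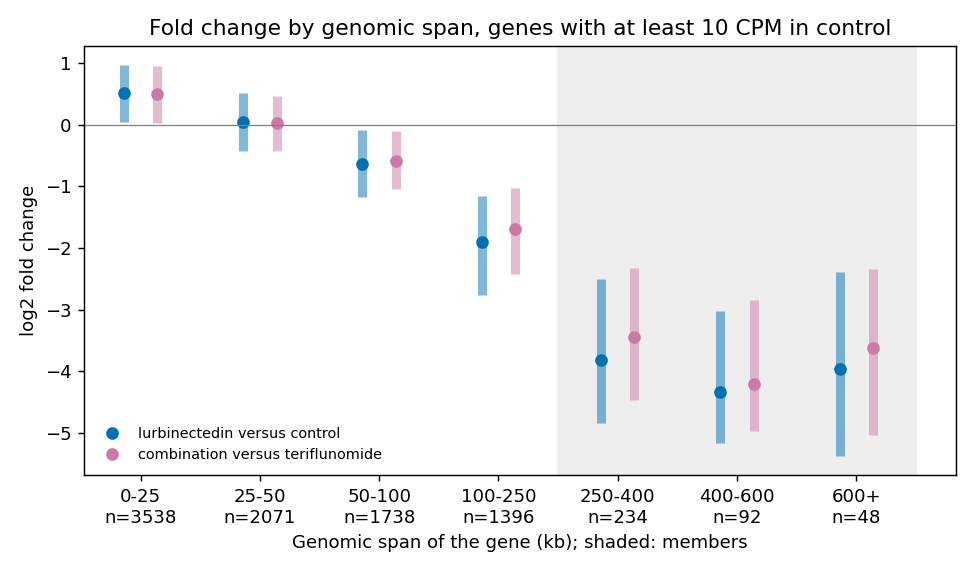
Median log2 fold change (points) and quartiles (bars) by class of genomic span in kb, for genes with at least 10 raw CPM in control; n is the number of genes in a class and the shaded classes are the members. Medians fall from 0.51 and 0.49 under 25 kb to -3.82 and -3.45 at 250 to 400 kb, and the 3 shaded classes differ by less than their quartile ranges.

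The deepest losses left almost no reads. SH3RF3 (chr2:109129205-109504634, plus strand), a ring finger scaffold of the JNK pathway, had 14.1, 15.0 and 15.1 CPM in control and 16.2, 16.6 and 12.5 CPM with teriflunomide. Its CPM were 0, 0 and 0.0727 with lurbinectedin and 0.217, 0.0843 and 0 in the combination. The treated libraries thus held 2 reads in all with lurbinectedin, against 1375 in control, and the ratio of these counts, scaled by depth, was 0.184% with an exact binomial 95% interval of 0.0223% to 0.666%, which covers counting error only. In the combination 8 reads against 1472 with teriflunomide gave 0.637% (0.274% to 1.26%), and edgeR gave a log2 fold change of -7.22 ± 0.40 (SE, adjusted p = 2.39e-09).

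PPM1H (chr12:62643994-62935150), a phosphatase that acts on Rab GTPases, had 22.2, 21.5 and 21.4 CPM in control and 0.242, 0.0391 and 0.145 CPM with lurbinectedin. ARL15 (chr5:53883942-54310582), a small GTPase, had 10.8, 11.5 and 11.0 CPM in control and 0.0969, 0.0391 and 0.0727 CPM with lurbinectedin. All treated libraries of both genes lay far below every control library. Levels in the combination were 0.688, 0.464 and 0.319 CPM for PPM1H and 0.290, 0.379 and 0.191 CPM for ARL15, and their log2 fold changes against teriflunomide were -5.73 ± 0.24 and -5.41 ± 0.22. TTC28, TNIK, a kinase of the Wnt pathway, and PLCH1, a phospholipase C, completed the 6 lowest. Their log2 fold changes with lurbinectedin were -7.06, -6.85 and -6.81, and those of the combination against teriflunomide were -6.21, -6.73 and -6.55. Exons of the antisense gene TTC28-AS1 overlap TTC28, and since use of strand in counting is not stated, reads of the overlap could be shared between them or dropped.

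**Figure D3:**
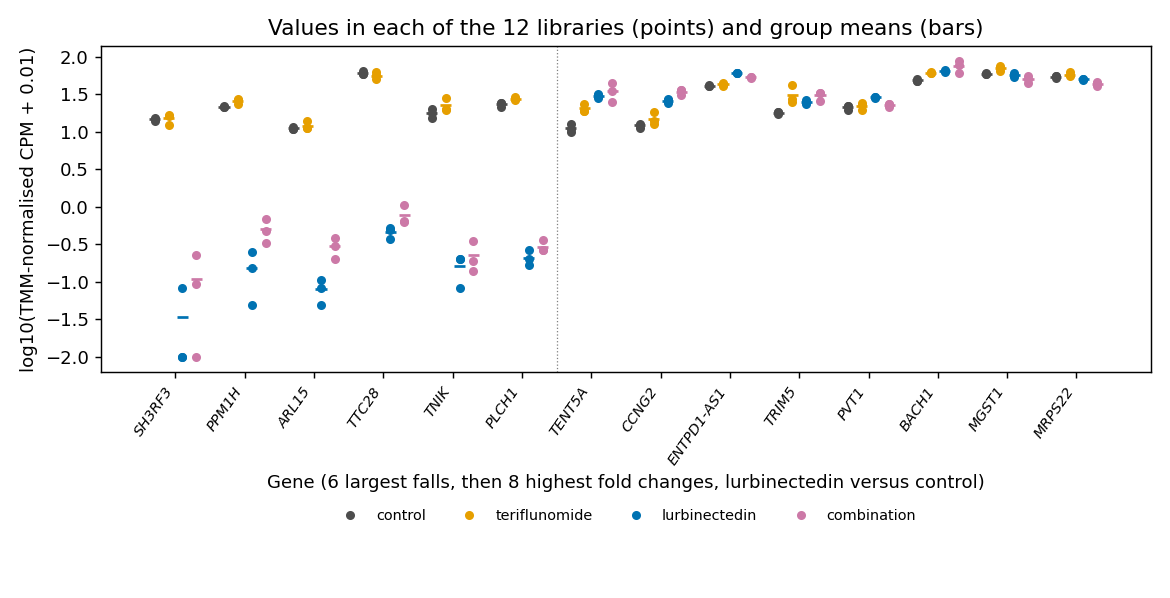
Log10 of TMM-normalised CPM plus 0.01 in each of the 12 libraries (points) and group means (bars) for the 6 members with the largest falls and the 8 with the highest fold changes, lurbinectedin against control; colours are the 4 groups. For the first 6 every library with lurbinectedin lies below every library without it, and SH3RF3 is at 0 CPM in 2 lurbinectedin libraries and 1 combination library.

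Longest of all were ROBO2, PDE4D, RBMS3 and TBC1D5, and they did not share 1 size of loss. ROBO2 (chr3:75906695-77649964, 1740 kb), a Slit receptor of axon guidance, fell from 199, 202 and 274 CPM with teriflunomide to 7.82, 7.46 and 8.10 CPM in the combination (log2 fold change -4.85 ± 0.14, adjusted p = 1.73e-11). TBC1D5 (1290 kb), which acts on Rab7 with the retromer, fell from 81.9, 86.6 and 94.6 CPM to 0.977, 1.10 and 0.957 CPM (-6.44 ± 0.13, adjusted p = 1.43e-12). RBMS3 (1440 kb), an RNA-binding protein, had a log2 fold change of -4.76 ± 0.25. PDE4D (chr5:58969038-60522120, 1550 kb), a cyclic AMP phosphodiesterase, went from 265, 271 and 348 CPM to 197, 197 and 125 CPM (-0.77 ± 0.16, adjusted p = 0.000592). Groups did not overlap in any of the 4, but PDE4D kept 58.7% of its teriflunomide level where TBC1D5 kept 1.15%. Its relative PDE4B (582 kb) likewise kept 68.9%, with 426, 427 and 451 CPM under teriflunomide and 317, 295 and 286 CPM in the combination (-0.54 ± 0.08, adjusted p = 3.33e-05). Both have transcripts of many lengths, and in GENCODE 29 11 of 18 PDE4B transcripts and 7 of 29 PDE4D transcripts span under 100 kb. Such shares are not given for the other members, so this cannot be called particular to PDE4B and PDE4D. Its part in their loss was not tested.

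Members with the most counts in control (CPM are not divided by length, so this orders reads, not molecules) ranged widely in their loss. ZPLD1, a membrane protein with a zona pellucida domain, had 2350, 2420 and 2250 CPM in control, 787, 892 and 756 CPM with lurbinectedin and 1170, 1140 and 758 CPM in the combination. A level of 34.7% of control was left with lurbinectedin, and the log2 fold change of the combination against teriflunomide was -1.28 ± 0.16 (adjusted p = 6.49e-06). MACF1, which links actin to microtubules, kept 26.8% of control, and PSD3, an exchange factor for the GTPase ARF6, kept 26.1%. Over all members the fold change of the combination against teriflunomide had a Spearman correlation of 0.208 with control CPM.

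By function, each list of members held large losses, with medians from -4.53 to -3.10 in the combination against teriflunomide. Of the 374 members, 275 were placed in 1 of 10 lists by known function and 99 in none. The share called lower there was 97.6% over all members and 35.8% over all genes tested, so counts of the lists near the former say nothing particular to a function. All 46 kinases and signalling proteins were lower (median log2 fold change -4.20). PTK2, the focal adhesion kinase, fell from 267, 276 and 317 CPM to 23.3, 11.3 and 17.1 CPM (-4.05 ± 0.20, adjusted p = 1.00e-09). All 44 genes of membrane trafficking and autophagy were lower (median -4.22), among them ASAP1, an Arf GTPase activator, at -4.32, and EHBP1, which couples endocytosis to actin, at -3.57. ANO6, a lipid scramblase of the same list, was at -2.96, with exons of PLEKHA8P1 overlapping it.

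All 20 adhesion and polarity genes were lower (median -3.58). CTNNA1, the alpha-catenin of adherens junctions, was at -2.10, the guidance receptor NEO1 at -3.34 and ROBO2 at -4.85.

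Of 45 genes of transcription and chromatin, 44 were lower and 1, BACH1, was higher (median -3.55). NFIB, a transcription factor of lung development, was at -1.87 and EYA1, a coactivator with phosphatase activity, at -1.18, so these 2 abundant regulators kept 27.3% and 44.2% of their teriflunomide level. Exons of a processed transcript overlap EYA1. All 19 genes of RNA processing and translation were lower (median -3.58), from FTO at -6.84 and SND1, an RNA-binding nuclease-like protein, at -4.08 to EIF3E at -0.36. All 15 genes of ubiquitin and proteolysis were lower (median -3.39). The large ubiquitin ligases BIRC6 and MYCBP2 were at -2.66 and -2.91 and the deubiquitinase USP34, overlapped by AHSA2P, was at -3.31.

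All 14 channels and transporters (median -3.82) and all 19 genes of metabolism and glycosylation (median -4.53) were lower. ABCC4, an exporter of cyclic nucleotides, was at -2.97, TMEM135 at -4.83 and the bicarbonate transporter SLC4A10, overlapped by TBR1, at -3.74. ACACA, the acetyl-CoA carboxylase of fatty acid synthesis, fell from 298, 290 and 262 CPM to 20.4, 13.2 and 18.0 CPM (-4.04 ± 0.14, adjusted p = 9.36e-11). CERS6, a ceramide synthase, was at -3.54, and SUCLG2, a succinyl-CoA ligase subunit of mitochondria, at -4.53. Among 16 genes of cell cycle and DNA repair, 15 were lower and 1, CCNG2, was higher (median -3.10). POLA1, the catalytic subunit of DNA polymerase alpha, was at -3.25, and BABAM2, of the BRCA1-A complex, at -3.24 with exons shared with MRPL33. The 99 members in no list had a median of -3.01.

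Long genes often encode 1 subunit of a complex whose other subunits come from shorter genes and are set beside them here. In the exocyst, which tethers secretory vesicles, EXOC4 (814 kb) and EXOC6B (650 kb) were at log2 fold changes of -5.28 and -4.51 in the combination against teriflunomide, while EXOC7 (40.6 kb) was higher at 0.78 and EXOC8 (5.10 kb) at 0.99. EXOC4 had 51.6, 49.5 and 48.1 CPM with teriflunomide and 1.23, 1.73 and 0.925 CPM in the combination. EXOC8 had 32.9, 29.5 and 32.8 CPM and 62.5, 76.4 and 50.4 CPM, so its groups were apart in the other direction. The median of the 7 exocyst subunits that were no members was -0.53, and EXOC2 (208 kb) and EXOC6 (233 kb) among them were at -4.14 and -4.22.

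FTO (chr16:53701692-54158512, 457 kb), a demethylase of m6A in RNA, had 58.2, 55.2 and 64.1 CPM with teriflunomide and 0.543, 0.632 and 0.383 CPM in the combination (-6.84 ± 0.19, adjusted p = 1.73e-11). Exons of RPGRIP1L overlap it. Of 14 other m6A writers, erasers and readers, all under 100 kb, 3 were lower and 8 higher, with a median of 0.49. Among all expressed genes under 25 kb 57.3% were higher with the same median, against 33.6% of those of 25 to 50 kb and 11.3% of those of 50 to 100 kb. ALKBH5, the other m6A demethylase (26.9 kb), was at 0.47 ± 0.13 (adjusted p = 0.00415). In the mTOR complexes RPTOR and MAPKAP1, subunits of mTORC1 and mTORC2, were at -4.60 and -4.26, against -1.82 for MTOR itself (156 kb), -2.08 for RICTOR (136 kb) and 0.07 for MLST8 (5.21 kb, adjusted p = 0.704). DEPTOR (177 kb), which is no member, had 107 reads with teriflunomide and 1 read in the combination, so its fitted -6.07 rests on that 1 read. The 9 mTOR genes that were no members had a median of -0.49.

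TRAPPC9, of the TRAPP tethering complexes, was at -3.96, where 13 other subunits had a median of -0.07. PARD3, the scaffold of the PAR polarity complex, was at -5.77, and its relative PARD3B (1070 kb), too low in control to be a member, at -5.27. The other 5 PAR genes tested lay between -1.84 and 0.41. GSK3B, a kinase of the beta-catenin destruction complex, was at -2.52 ± 0.18, and its paralog GSK3A (16.4 kb) was higher at 1.11 ± 0.10. Of the same list BTRC (203 kb), no member, was at -3.50 and APC (139 kb) at -2.01, and the 8 genes that were no members had a median of 0.03. The cohesin subunits STAG1 and STAG2, which are alternative subunits, were at -4.77 and -1.21. STAG1 kept 3.66% and STAG2 43.2% of the teriflunomide level. The principal transcript of STAG2 spans 141 kb of its 462 kb, but its RefSeq start lay 0.348 kb from the 5′ end of the span. The part of transcript length in this difference was not tested. ARID1B, of the BAF remodelling complex, was at -4.20, and its paralog ARID1A (88.9 kb) at -0.33. Exons of PCCB overlap STAG1, and those of GSK3B-DT overlap GSK3B.

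**Figure D4:**
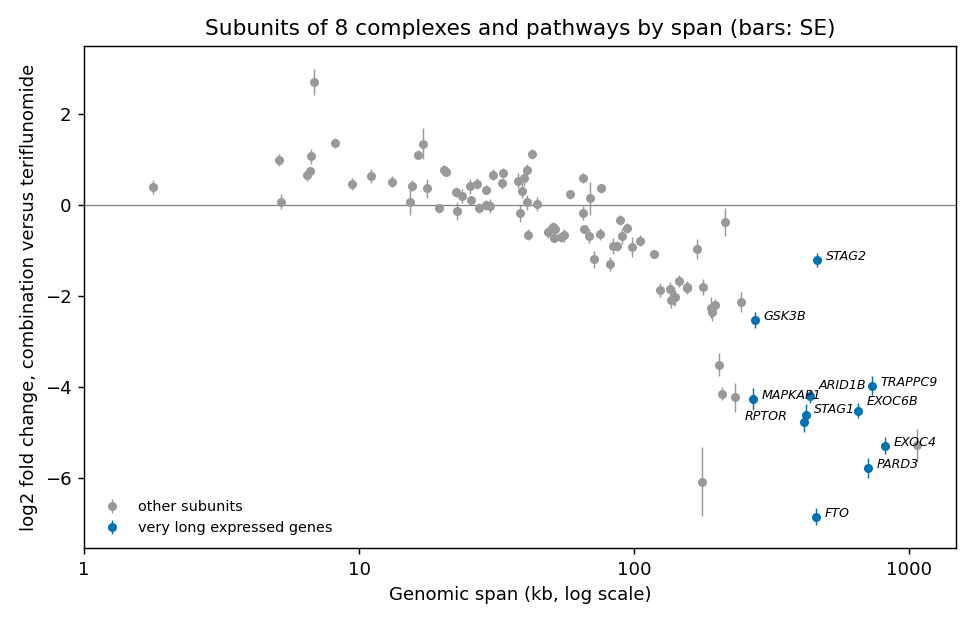
Log2 fold change of the combination against teriflunomide (vertical axis, bars are SE) by genomic span (horizontal axis, kb, log scale) for the tested subunits of 8 complexes and pathways. The very long members (blue) lie between -6.84 and -1.21; other subunits (grey) under 10 kb lie at or above 0, and those of 100 to 250 kb below 0.

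The exceptions were few. Of the 374 members, 12 were not called lower with lurbinectedin: TENT5A, CCNG2, ENTPD1-AS1, TRIM5, PVT1 and BACH1, called higher, and MGST1, MRPS22, FRMD4A, EIF3E, COX10-DT and FTX, without a call. The last 2 fall outside the rule for named genes and are given after their values were seen. These calls use the control libraries, and several depended on the setting: TRIM5 was not called without any 1 of the control libraries, without lurbinectedin replicate 2 or 3 or when scaled by library size alone. PVT1 and BACH1 were not called with that scaling, nor was PVT1 with no filter on low counts. EIF3E and FRMD4A were called lower in 4 and 5 of the alternatives, and MRPS22 when scaled by library size alone. In the combination against teriflunomide 8 of the 12 were again not lower, and PALLD, also named after its values were seen, was the ninth gene without a lower call there. TENT5A, a poly(A) polymerase, had 9.99, 12.9 and 10.8 CPM in control, 18.8, 19.2 and 23.7 CPM with teriflunomide, 32.0, 28.5 and 30.7 CPM with lurbinectedin and 35.3, 44.9 and 25.1 CPM in the combination. Both groups with lurbinectedin lay above the matching group without it, and the combination was higher than teriflunomide by 0.77 ± 0.18 on the log2 scale (adjusted p = 0.00175).

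CCNG2, an unconventional cyclin linked to cell cycle arrest, had 11.2, 12.4 and 12.9 CPM in control, 14.1, 12.7 and 18.1 CPM with teriflunomide, 26.2, 27.1 and 24.5 CPM with lurbinectedin and 35.7, 36.5 and 30.9 CPM in the combination. It rose by 1.20 ± 0.14 in the combination against teriflunomide (adjusted p = 3.12e-06) and by 1.09 ± 0.14 with lurbinectedin. ENTPD1-AS1, an antisense RNA, had 43.5, 41.4 and 44.5 CPM with teriflunomide and 54.0, 53.6 and 52.5 CPM in the combination (0.31 ± 0.09, adjusted p = 0.00653, and 0.132 with library size as the only scaling). BACH1, a haem-regulated repressor, had 60.0, 60.7 and 63.3 CPM and 88.6, 77.6 and 60.4 CPM, which overlap (0.30 ± 0.12, adjusted p = 0.0401, and from 0.0506 to 0.206 in the 12 alternatives that ended the call, among them 0.193 without combination replicate 1). Exons of GRIK1 overlap BACH1. The restriction factor TRIM5 (-0.03 ± 0.17, adjusted p = 0.880) and the long non-coding RNA PVT1 (0.03 ± 0.11, adjusted p = 0.810) did not pass there.

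EIF3E, a subunit of the translation initiation factor eIF3, MGST1, a glutathione transferase of membranes, and MRPS22, of the mitochondrial ribosome, had small falls in the combination against teriflunomide. EIF3E went from 498, 498 and 589 CPM to 420, 453 and 359 CPM (-0.36 ± 0.10, adjusted p = 0.00611, and 0.0583 with only these 2 groups in the fit). MGST1 was at -0.49 ± 0.10 (adjusted p = 0.000826) and MRPS22, which shares exonic bases with COPB2, at -0.41 ± 0.10 (adjusted p = 0.00178). All 3 kept between 71.4% and 77.7% of the teriflunomide level, so they fell far less than the median member. FRMD4A, a scaffold of cell polarity, had 138, 139 and 157 CPM with teriflunomide and 122, 137 and 125 CPM in the combination (-0.18 ± 0.09, adjusted p = 0.0975), and was called lower with library size as the only scaling (adjusted p = 0.0309) and without combination replicate 2 (0.0489).

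Some exceptions had a feature that the rule did not use. The span of a gene covers all its annotated transcripts, and the principal transcript, the main isoform that the APPRIS tags of GENCODE 29 mark for protein-coding genes, can be much shorter. This feature was chosen after the values were seen and is a description. Of the 8 exceptions with a principal transcript, 6 had it under 100 kb: TENT5A at 6.98 kb, CCNG2 at 12.9 kb, MGST1 at 17.3 kb, TRIM5 at 21.5 kb, EIF3E at 47.0 kb and BACH1 at 47.3 kb. The other 2, MRPS22 and FRMD4A, had it at 351 and 687 kb, and 4 exceptions, which encode no protein, had none. In all, 17 members had a principal transcript under 100 kb, with a median log2 fold change of -1.01 in the combination against teriflunomide and 49.7% left; 13 of these 17 were still called lower there, and 11 with lurbinectedin. For 48 members of 100 to 250 kb, all of them lower, the median was -2.90, and for 294 members of at least 250 kb it was -3.89, with 292 called lower. The Spearman correlation of that fold change with the principal transcript's span was -0.334 over 359 members.

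The place of the start site differed among the members. For 228 of 312 members (73.1%) the RefSeq start lay within 1 kb of the 5′ end of the annotated span, and for 41 it lay more than 100 kb inside. Of the 10 exceptions with a RefSeq window, 6 were within 1 kb and 4 over 100 kb inside. MRPS22 (351 kb, also the span of its principal transcript) had its RefSeq start 338 kb inside, which leaves 13.2 kb to the far end. TRIM5 had it 254 kb inside, leaving 21.9 kb. FRMD4A and BACH1 had it 454 and 111 kb inside, but this left 365 and 326 kb. TENT5A, CCNG2 and MGST1 instead start within 1 kb of the 5′ end and hold 94.7%, 91.2% and 78.6% of their exonic bases in the first 25% of the span, where the median member holds 11.0%. Over all members that share had a Spearman correlation of only 0.124 with the fold change of the combination against teriflunomide. ENTPD1-AS1, COX10-DT and FTX also start within 1 kb, with 357, 314 and 353 kb to the far end. Members with a start over 100 kb inside had a median log2 fold change of -2.65 in the combination against teriflunomide, and those within 1 kb had -3.78. A start far inside was no mark of a small loss by itself: ROBO2, RBMS3 and TBC1D5 had it 404, 706 and 704 kb inside. These 3 still had 1340, 729 and 584 kb from that start to the far end. A start over 100 kb inside left under 100 kb in CAST, EGLN3, GNAI1, GSE1, KANK1, MRPS22, TRIM5 and ZPLD1 alone. Their log2 fold changes in the same comparison ran from -1.86 to -0.03. These limits, and so this small group, were chosen after the values were seen. The part of the remaining length was not tested.

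**Figure D5:**
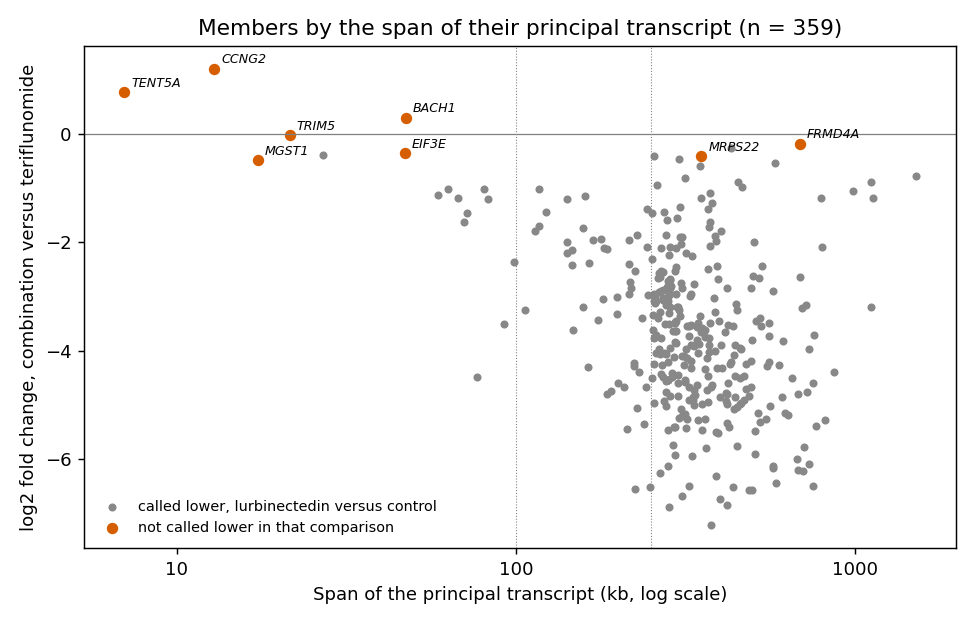
Log2 fold change of the combination against teriflunomide (vertical axis) by the span of the principal transcript (horizontal axis, kb, log scale) for 359 protein-coding members; dotted lines are at 100 and 250 kb. Genes not called lower with lurbinectedin are orange, and 6 of these 8 lie left of 100 kb.

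The 15 members that do not encode protein had a smaller median loss. Their median log2 fold change was -1.80 in the combination against teriflunomide, where the 359 protein-coding members had -3.65, and 12 of the 15 were lower. They ran from MSC-AS1 at -4.35 to ENTPD1-AS1 at 0.31. FTX, a non-coding RNA of the X inactivation centre, was at -0.78 ± 0.26 (adjusted p = 0.0155) and COX10-DT at -0.22 ± 0.18 (adjusted p = 0.282). MSC-AS1 was also named after its values were seen, and reads of antisense genes cannot be told apart from those of their partners without use of strand.

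Teriflunomide alone left the members near control. Of 374, 2 were lower and 10 higher, 2.67% of members for the latter against 3.88% of all genes, and the background for lower calls was 2.13%. The median log2 fold change was 0.11 against 0.03 for all genes, but single libraries gave -0.00, 0.01 and 0.30, the last for the library with 22.6% mitochondrial counts. This comparison uses the control libraries that chose the members, so its counts and values are a description. TENT5A (0.87 ± 0.19), TRIM5 (0.80 ± 0.17) and PLCL2, a phospholipase C-like protein at the level limit (0.66 ± 0.16), were among those called higher. DESeq2 called 11 lower and 18 higher, and 5.34% and 6.94% of the genes it tested. Without teriflunomide replicate 3, 10 members were lower in edgeR.

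The members' values in the combination lay slightly above those with lurbinectedin alone, and none passed the edgeR test. The edgeR test called 0 of 374 and 0.0% of all genes, with a smallest adjusted p of 0.151 among the members. The median log2 fold change was 0.36, against 0.03 for all genes, and 315 members (84.2%) were above 0, as were 53.3% of all genes. At an unadjusted p under 0.05, 149 members (39.8%) were higher and 3 lower, where 9.81% and 5.77% of all genes were. DESeq2 called 69 members higher and 0 lower at an adjusted p under 0.05, and 3.56% and 1.38% of the genes it tested. By library the members' medians were 0.57, 0.20 and 0.25, so combination replicate 1, with 0.696% of its counts on members, was the highest. Without teriflunomide replicate 3, edgeR called 99 members higher and 1 lower, and without combination replicate 2 it called 38 higher. Teriflunomide replicate 3 is in neither group compared here and acts only through the fit shared by all groups. Shares over all genes are not given for these 2 refits, so their counts cannot be called particular to the members. The interaction asks whether the loss differed with and without teriflunomide. It uses the control libraries that chose the members, so its counts are a description. In it edgeR called 0 members (0.036% of all genes higher and 0.222% lower) and DESeq2 called 8 higher and 1 lower (0.766% and 1.05% of genes). At an unadjusted p under 0.05, edgeR had 70 members higher and 10 lower, against 5.28% and 5.07% of all genes.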

How the data were processed

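Per the labels' protocols, the RNeasy Plus Mini kit served to extract RNA from SBC3 spheroids, and the KAPA mRNA HyperPrep kit to build the libraries. The values are raw read counts per gene, deposited by the authors in 1 table per library in the layout of featureCounts, per the file headers. The submitters' processing notes name fastp 0.23.2, STAR 2.7.9, Subread, featureCounts and hg38. The annotation release, use of strand and treatment of multi-mapping reads are not given in the sources used here. All 37288 gene identifiers with the same version in GENCODE 29 had identical positions there, so coordinates are those of GRCh38. Symbols were found for 60463 of 60649 identifiers.

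Counts of all 12 libraries were fitted in edgeR 4.0.16 (R 4.3.3; filterByExpr, TMM, robust quasi-likelihood), with Benjamini-Hochberg adjustment over the 16683 genes that passed the filter, all 374 members among them. Every fold change, SE and adjusted p above comes from this fit unless another tool is named. The biological coefficient of variation was 14.5%. The script was tested on simulated data. DESeq2 1.42.0 was an alternative. Labels do not say whether replicates were separate cultures, so p-values measure the spread between these libraries, which may be technical. Same-numbered libraries did not deviate together (median r of -0.0282 over 18 pairs), so the numbers were not taken as pairs.

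Members and lists were chosen with earlier results of these data known. The genes named are the 8 with the highest control CPM, the 6 lowest and 10 highest by fold change with lurbinectedin, the 4 longest, up to 3 per function list by control CPM, the 2 nearest each limit on either side, and the subunits of 8 complexes, except those said to be chosen after their values were seen. Exons of 192 members overlap an exon of another gene. No set test was run. A few of the named genes and 1 list are not reported here.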

Additional observations from a re-analysis of the deposited data

How the results depend on the processing

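Where all 374 members were kept, the number called lower with lurbinectedin or the combination stayed within 1.5 times the main number under each alternative, and of 2394 alternative values of 63 named members 0 changed sign past a call, 25 lost a call and 13 gained a call, in EIF3E, ENTPD1-AS1, TRIM5, PVT1, BACH1, MRPS22 and FRMD4A. Other limits change how many genes there are to call. In the order lurbinectedin against control, combination against teriflunomide and combination against control, a span of at least 200 kb (594 genes) gave 569, 573 and 564 lower, 11, 9 and 9 higher, and medians of -3.63, -3.23 and -3.16, with 4 lower for teriflunomide. A span of at least 500 kb (74 genes) gave 73, 73 and 72 lower and 0 higher in each, with 2 higher for teriflunomide. The 182 members with no exon overlap gave 179, 180 and 177 lower and 2 higher in each, with 4 higher for teriflunomide. The share called lower was 94.9% to 98.9% in all of these. A mean control CPM of at least 20 (273 genes) gave 3, 2 and 2 higher and, for teriflunomide, 3 higher, a minimum of 5 gave 16 higher for teriflunomide, and so did members chosen on teriflunomide CPM. With library size as the only scaling the median of all genes for lurbinectedin against control was -0.18 in place of 0.05, the members' median was -4.17, and 3 members were higher; 2 were higher in the combination against teriflunomide and 0 lower and 4 higher with teriflunomide. With no filter on low counts, 2 members were higher in the combination against teriflunomide, 4 lower and 17 higher with teriflunomide, 83 higher in the combination against lurbinectedin and 15 higher in the interaction. DESeq2 gave 11 lower and 18 higher with teriflunomide, 69 higher in the combination against lurbinectedin, and 8 higher and 1 lower in the interaction. With only the groups compared in the fit, 2 were higher in the combination against teriflunomide, 0 lower and 5 higher with teriflunomide and 1 higher in the combination against lurbinectedin. Protein-coding members alone, an alternative chosen after seeing the data, gave 4 higher with lurbinectedin. The cause of these differences was not tested, and shares of all genes called are not given in this section. Leaving out libraries gave 0 to 21 members lower and 2 to 25 higher with teriflunomide, 0 to 158 higher and 0 to 2 lower in the combination against lurbinectedin, and 0 to 103 higher and 0 to 4 lower in the interaction; the upper ends are without both teriflunomide replicate 3 and combination replicate 2, a choice made after seeing the data. The replicate block gave 0 lower and 5 higher with teriflunomide and, in the combination against teriflunomide, no call of BACH1 (adjusted p = 0.065); it changed no other count by over 1.5 times. Same-numbered libraries had deviations correlated from -0.402 to 0.144. Depth limits the deepest losses: 1 member had 3 or fewer reads over the lurbinectedin libraries.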
